A study of Mus musculus with 6 samples.

Results

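The NDRG genes *Ndrg1*, *Ndrg2* and *Ndrg3* were examined in bone-marrow-derived macrophages (BMDMs) under high salt. They were found by gene symbol, and are 3 of the 15903 genes with at least 10 counts in all. The family was selected on the difference between NaCl and control in these same libraries, led by *Ndrg2*, so the levels of the 3 genes are described here without a p-value for the NaCl effect. BMDMs are obtained when marrow progenitors are grown with the macrophage growth factor M-CSF. Marrow of 3 Cx3cr1GFP mice on the C57BL/6J background was cultured for 7 days with 10 ng/ml M-CSF, and cells of each mouse were left unstimulated (control, n = 3) or received 62 mM excess NaCl for 24 h (NaCl, n = 3). RNA was taken from adherent cells. By this description of the mice, which was not checked in the reads, all 6 libraries carry the GFP allele at the *Cx3cr1* locus. Whether they carry it on 1 chromosome or both, and the age of the mice, are not given in the sources used here, and no library with another osmolyte was analysed here, so sodium and osmolarity cannot be told apart.

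NDRG proteins share an alpha/beta hydrolase fold but are not known to act as hydrolases. The founding member, NDRG1 (N-myc downstream regulated gene 1), is repressed by the MYC proteins and induced by hypoxia, iron depletion and other stresses, and its loss causes a demyelinating neuropathy. NDRG2 is abundant in astrocytes, is induced by aldosterone in the kidney and, like NDRG1, is phosphorylated by the salt- and hormone-responsive kinase SGK1. NDRG3 has been described as an oxygen-regulated, lactate-binding member, and NDRG4 is mostly known from heart and brain.

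Since *Ndrg2* went from nearly no reads to a mid-range level, the sequence around its start sites is shown beside that of *Ndrg3*, which was abundant in both groups. The windows are those of RefSeq on GRCm38.p6 and run from 250 bases before to 50 bases after a start site. RefSeq entries were matched for *Ndrg2*, *Ndrg3* and *Ndrg4*, while *Ndrg1* had none. Which start site was used in these cells was not measured. Capitals mark GCGTG or its reverse complement CACGC, the core letters of a hypoxia response element.
Ndrg2, upstream start site, chr14:51913955-51914254, minus strand: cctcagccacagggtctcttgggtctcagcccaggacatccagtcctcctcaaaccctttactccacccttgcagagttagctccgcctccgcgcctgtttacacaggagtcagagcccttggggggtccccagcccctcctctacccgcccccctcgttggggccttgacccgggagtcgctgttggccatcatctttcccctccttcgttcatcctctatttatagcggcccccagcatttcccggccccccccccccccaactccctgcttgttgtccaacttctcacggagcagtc
Ndrg2, middle start site, chr14:51913439-51913738, minus strand: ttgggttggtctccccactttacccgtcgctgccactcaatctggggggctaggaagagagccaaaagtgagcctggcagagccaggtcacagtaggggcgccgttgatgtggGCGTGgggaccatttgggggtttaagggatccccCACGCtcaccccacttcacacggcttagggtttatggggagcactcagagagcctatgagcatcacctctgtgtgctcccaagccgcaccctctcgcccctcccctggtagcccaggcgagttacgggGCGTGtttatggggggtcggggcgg
Ndrg3, upstream start site, chr2:156992062-156992361, minus strand: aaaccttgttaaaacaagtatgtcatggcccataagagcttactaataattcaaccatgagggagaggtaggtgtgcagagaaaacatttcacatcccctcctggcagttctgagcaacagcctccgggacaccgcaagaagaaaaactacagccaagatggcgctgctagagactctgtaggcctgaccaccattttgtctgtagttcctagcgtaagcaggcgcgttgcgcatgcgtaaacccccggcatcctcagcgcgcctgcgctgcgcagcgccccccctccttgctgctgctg
Ndrg3, downstream start site, chr2:156991654-156991953, minus strand: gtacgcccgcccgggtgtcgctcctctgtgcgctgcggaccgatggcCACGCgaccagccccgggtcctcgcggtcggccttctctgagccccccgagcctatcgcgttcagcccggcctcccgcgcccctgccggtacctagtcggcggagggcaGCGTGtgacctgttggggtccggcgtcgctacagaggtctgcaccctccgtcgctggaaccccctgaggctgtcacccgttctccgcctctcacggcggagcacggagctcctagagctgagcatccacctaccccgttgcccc
The letters GCGTG, searched on both strands, occurred in 2 of the 3 *Ndrg2* windows, which overlap each other, in 1 of the 2 *Ndrg3* windows and in 32.4% of all 32851 promoter windows. In the middle *Ndrg2* window they lay at positions -137, -103 and 26 relative to the start site, and the single match of the window further downstream, at -134 there, is the same stretch of genome as the last of these. In the downstream *Ndrg3* window they lay at -203 and -94. The core of the binding site of the osmotic regulator NFAT5, searched as TGGAAA, was in none (0) of the 3 *Ndrg2* windows and in 21.4% of all windows. The other hypoxia core ACGTG (19.6% of all windows), the E-box CACGTG bound by MYC proteins (7.15%), which contains ACGTG, and the half-site TGTTCT of the glucocorticoid receptor (18.97%) were also in none (0) of the 3. These are matches of letters in short windows and were not measured as binding.

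*Ndrg2* (ENSMUSG00000004558.16, chromosome 14) was nearly absent from control BMDMs and present in every NaCl library. The control libraries held 3, 2 and 1 counts of *Ndrg2* in replicates 1, 2 and 3, and the NaCl libraries held 158, 489 and 134. In CPM, counts scaled to TMM-adjusted library size, this was 0.341, 0.181 and 0.0504 in control and 17.7, 44.3 and 32.1 in NaCl. The groups did not overlap, and the deepest library of all, control replicate 3 with 20123570 counts, had the lowest value. A library with 3 or fewer counts is treated as lying at the floor of detection, and every control library was there, whereas the next lowest count of any of the 3 members was 43, that of *Ndrg1* in NaCl replicate 3.

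The mean level of *Ndrg2* was 0.191 ± 0.146 CPM (SD, n = 3) in control and 31.4 ± 13.4 CPM (n = 3) in NaCl. The ratio of these means was 164. With counts and TMM-adjusted library sizes each summed over the libraries of a group, the ratio was 214. Its 95% interval ran from 97.7 to 584 (exact, conditional on the summed counts, for counting error only). With every control library set to the floor of 3 counts this summed ratio was 142. Within mouse 1 the ratio was 51.8 (17.4 to 254), within mouse 2 it was 245 (67.4 to 2026) and within mouse 3 it was 636 (112 to 25320). These intervals overlap, and whether the ratios differ between mice was not tested. The fitted log2 fold change was 7.56 (SE 0.54), a value that depends on how the 6 control counts are modelled.

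Among the genes tested, *Ndrg2* moved from between the 0.497 and 9.22 percentile of expression in the control libraries to between the 53.6 and 71.2 percentile in the NaCl libraries. Of 15903 genes, 502 (3.16%) had at most 3 counts in every control library. Of these, *Ndrg2* alone (0.00629% of all genes) also reached a mean of 50 counts in NaCl, with a mean of 260 counts. The next by mean count, looked up after the values were seen, was *Tal2*, a helix-loop-helix factor, with 1, 1 and 3 counts in control and 15, 47 and 15 in NaCl. *Has1*, a hyaluronan synthase, had 1, 1 and 3 against 9, 25 and 4 counts, which equalled *Trim17* in mean and lay below *B230312C02Rik*. That *Ndrg2* stood alone depends on the cut of 3 counts. *Slc6a12*, a betaine transporter gene that did not meet it, was at 0.455, 0.362 and 0.454 CPM in control. In NaCl it was at 44.4, 104.7 and 64.2 CPM. No gene (0) showed the opposite pattern, with at most 3 counts in every NaCl library and a mean of at least 50 in control. The members were compared with these genes as a description, since *Ndrg2* was chosen for this pattern.

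**Figure D1:**
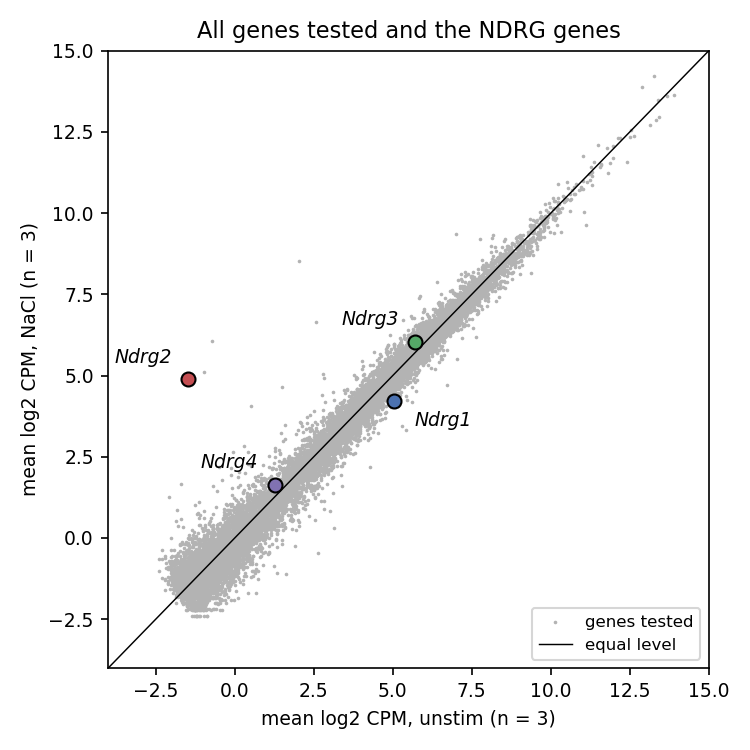
Mean log2 CPM (prior count of 2) of every gene tested in the 3 control (unstim, x axis) and the 3 NaCl libraries (y axis), with the line of equal level and the 4 NDRG genes marked. *Ndrg2* lies far above the line, *Ndrg3* and *Ndrg4* a little above it and *Ndrg1* below it.

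*Ndrg1* (ENSMUSG00000005125.14, chromosome 15) varied widely between mice. It was at 52.2, 28.6 and 23.4 CPM in control replicates 1, 2 and 3 and at 45.4, 13.3 and 10.3 CPM in NaCl replicates 1, 2 and 3. Within each of the 3 mice the NaCl library was the lower, but the groups overlapped because both libraries of mouse 1 stood above those of mice 2 and 3. The change within a mouse was -13.1% in mouse 1, -53.4% in mouse 2 and -55.9% in mouse 3. Of all genes tested, 23.4% were lower in 3 of 3 mice.

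The mean of *Ndrg1* was 34.7 ± 15.4 CPM in control and 23.0 ± 19.4 CPM in NaCl (SD, n = 3 each). Its log2 fold change was -0.55 (SE 0.49) without a term for the mouse and -0.75 (SE 0.16) when mouse entered the fit as a replicate block. It came to -1.51 without NaCl replicate 1, -0.14 without control replicate 1, -0.23 without NaCl replicate 2 and -0.24 without NaCl replicate 3. With the block and without mouse 1, 2 or 3 it came to -1.13, -0.51 and -0.61. At a Benjamini-Hochberg adjusted p of 0.05 in edgeR, 1 of the 3 members passed without the block (*Ndrg2*), where 0.654% of all genes did, and 2 passed with it (*Ndrg1* and *Ndrg2*), where 8.9% did. As these members were chosen with this contrast known, these counts are given only as a description.

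The difference between mice is a separate measure from the NaCl effect, and it was tested after the values had been seen. In the fit with treatment and mouse, *Ndrg1* was lower in mouse 2 than in mouse 1 by a log2 difference of -1.31 and lower in mouse 3 than in mouse 1 by -1.57. For this mouse term edgeR's quasi-likelihood test gave an adjusted p of 3.1e-06, and 8.89% of all genes passed it. For *Ndrg3* the corresponding log2 differences were 0.03 and -0.11 (adjusted p = 0.834 in the same test). For *Ndrg2* no test between mice is given, since its control libraries lay at the floor and 1 NaCl library per mouse would carry it. Each mouse gave 1 marrow culture per treatment, so a mouse and its culture cannot be told apart. Cell type markers also differed in mouse 1, in both directions. Of the 10 neutrophil and precursor genes, 5 (*S100a9*, *Ly6g*, *Camp*, *Ltf* and *Ngp*) were lower in both libraries of mouse 1 than in all 4 others and 0 were higher, and the list summed to 251 and 271 CPM in mouse 1 and to between 293 and 542 CPM in the others. *Ly6g* had 26 counts over all 6 libraries, so its order rests on few reads. Of the 7 monocyte genes, 1 was higher in mouse 1, the chemokine receptor gene *Ccr2*, and 1 was lower, *Chil3*. In the macrophage list *Adgre1* was higher and *Itgam* lower in this way. *Cd79b* of the B cell list was also higher, as were *Flt3* and *Pdgfrb*, both at low levels, of the dendritic cell and stromal lists. The share of all genes with mouse 1 apart in this way was not counted, so these counts have no background. The monocyte list summed to 265 and 333 CPM in mouse 1 and to between 144 and 178 CPM in the others. Of these sums, *Ccr2* alone gave 211 and 258 CPM in mouse 1 and between 38.7 and 99.2 CPM in the others. The higher sum in mouse 1 thus came from *Ccr2*. The part of these markers in the level of *Ndrg1* was not tested.

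*Ndrg3* (ENSMUSG00000027634.15, chromosome 2) was the steadiest of the 3 genes. It was at 57.6, 49.8 and 50.04 CPM in control replicates 1, 2 and 3 and at 61.6, 73.5 and 60.8 CPM in NaCl replicates 1, 2 and 3. Every NaCl library was above every control library, although the lowest NaCl and the highest control library lay close together. Its mean was 52.5 ± 4.46 CPM in control and 65.3 ± 7.11 CPM in NaCl (SD, n = 3 each), a change of 24.4%, or 0.32 (SE 0.14) as fitted log2 fold change. The groups did not overlap for 2 of the 3 members (*Ndrg2* and *Ndrg3*), as for 19% of all genes (8.92% with NaCl higher and 10.1% with NaCl lower). Both were higher in 3 of 3 mice, as were 20.1% of all genes.

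*Ndrg4* (chromosome 8), the remaining gene of the family, was not among the members and was low throughout. It was at 2.05, 2.26 and 2.32 CPM in control and at 1.57, 4.62 and 3.35 CPM in NaCl. Its log2 fold change was 0.52 (SE 0.38), with an adjusted p in edgeR of 0.627 without and 0.376 with the block, so no difference was detectable at counts of 14 to 51 per library.

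**Figure D2:**
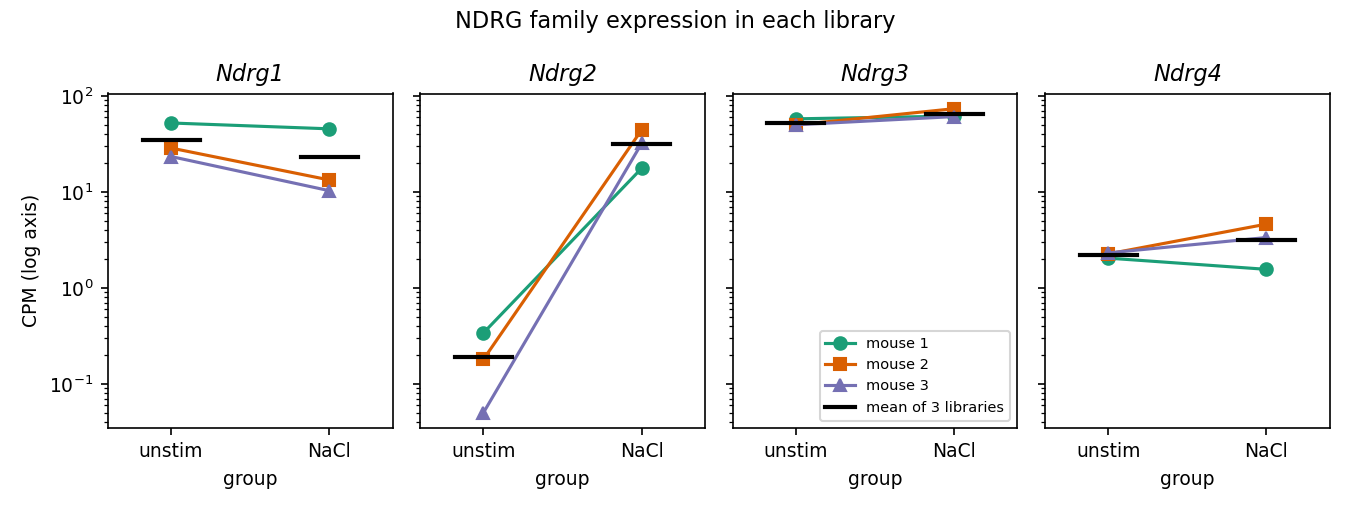
CPM (log axis) of the 4 NDRG genes in control (unstim) and NaCl libraries, with a symbol and a line for each mouse and a black bar for the mean of 3 libraries. The lines of *Ndrg2* climb steeply in 3 of 3 mice, those of *Ndrg1* descend from different heights, and those of *Ndrg3* stay within 49.8 to 73.5 CPM.

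To compare the members with each other, CPM was divided by the length of each gene's merged exons in GENCODE M21, 6596 bases for *Ndrg1*, 3397 for *Ndrg2* and 8388 for *Ndrg3*, which gives RPKM. In control, *Ndrg1* was at 7.91, 4.34 and 3.54 RPKM and *Ndrg3* at 6.87, 5.94 and 5.97 RPKM in replicates 1, 2 and 3, while *Ndrg2* did not exceed 0.100 RPKM. *Ndrg1* was thus the higher of these in mouse 1 and *Ndrg3* in mice 2 and 3, and their means of 5.26 ± 2.33 and 6.26 ± 0.531 RPKM differed by less than the spread of *Ndrg1*. In NaCl, *Ndrg2* was at 5.20, 13.05 and 9.45 RPKM, *Ndrg3* at 7.34, 8.76 and 7.25 RPKM and *Ndrg1* at 6.88, 2.02 and 1.56 RPKM. *Ndrg2* became the highest of the family in mice 2 and 3 and the lowest of the 3 members in mouse 1, and its mean of 9.23 ± 3.93 RPKM did not differ from that of *Ndrg3*, 7.79 ± 0.848 RPKM, beyond the spread.

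The summed level of the 4 family genes was 15.3, 10.8 and 10.0 RPKM in control and 19.7, 24.8 and 19.0 RPKM in NaCl. Without *Ndrg2* the sums were 15.2, 10.7 and 9.98 RPKM in control and 14.5, 11.7 and 9.50 RPKM in NaCl, and these ranges overlap. *Ndrg2* made up 0.656%, 0.494% and 0.149% of the summed level in the control libraries and 26.3%, 52.7% and 49.9% in the NaCl libraries. *Ndrg1* made up between 35.4% and 51.7% in control and 34.9%, 8.15% and 8.24% in NaCl. With the longest transcript as the length in place of the merged exons, *Ndrg3* was above *Ndrg1* in control replicate 1 as well, at 14.3 against 12.9 RPKM, and the mean ratio of *Ndrg2* to *Ndrg3* in NaCl was 0.904 in place of 1.17.

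**Figure D3:**
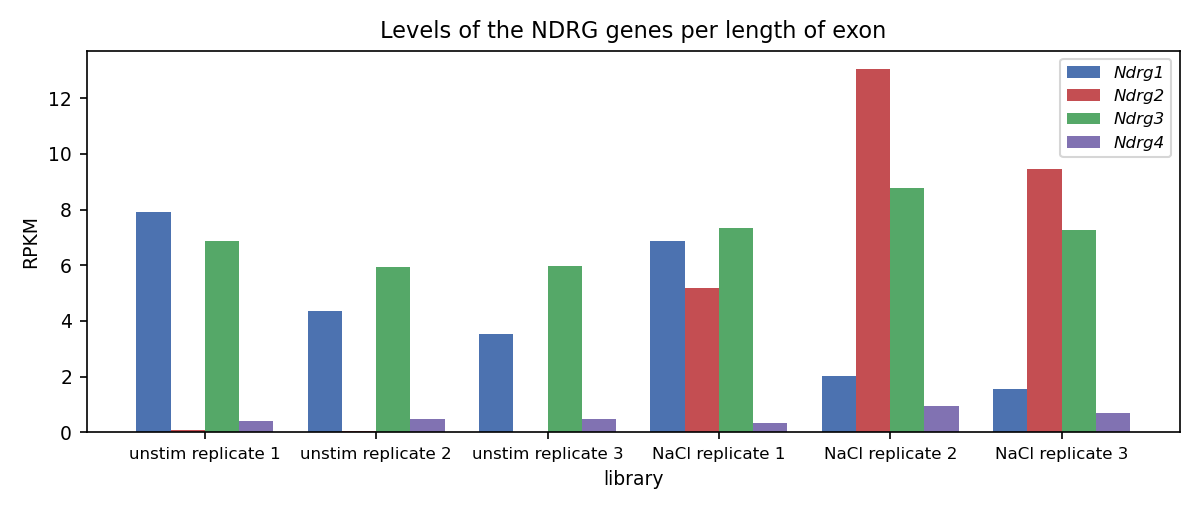
RPKM of the 4 NDRG genes in each of the 6 libraries, as bars from 0 with a bar per gene. *Ndrg2* is barely visible in the control (unstim) libraries and reaches 5.20 to 13.05 RPKM in the NaCl libraries, while *Ndrg1* is lowest in NaCl replicates 2 and 3.

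Reads of the members could be told from those of other genes for the most part. Of the 75-base windows of *Ndrg2* transcripts in GENCODE M21, 0% occur in transcripts of another gene, and no other gene overlaps it. For *Ndrg1*, 4.71% of windows are shared with *Gm17035* and *Gm2895*, which overlap 8.43% of its exonic bases from the opposite strand and had 0 and 1 counts over all libraries. For *Ndrg3* the shared windows came to 1.93%. The 3 nearest protein-coding genes on each side of *Ndrg2* were looked at next. *Slc39a2*, a zinc transporter gene, averaged 0.883 ± 0.103 CPM without and 0.817 ± 0.537 CPM with NaCl (SD, n = 3 each), and *Mettl17* was at 16.8 ± 2.05 and 19.6 ± 2.49 CPM. *Arhgef40*, on the other side, was at 6.66 ± 0.274 and 7.13 ± 2.03 CPM, and *Tppp2* and *Rnase13* had 0 counts. *Ear6*, a ribonuclease gene with close copies whose reads cannot be fully told apart, was at 0.936 ± 0.506 and 0.522 ± 0.379 CPM. Neither with nor without the block did any (0) of these neighbours pass in edgeR.

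The 3 nearest protein-coding genes on each side of *Ndrg1* were *Tg*, *Sla*, *Ccn4*, *St3gal1*, *Zfat* and *Khdrbs3*, and those of *Ndrg3* were *4930518I15Rik*, *Rab5if*, *Sla2*, *Dsn1*, *Soga1* and *Tldc2*. None (0) of the 9 of these 12 that were tested passed the threshold without the block, and *Dsn1*, a kinetochore gene, rose with it, from 14.2 ± 2.42 to 19.9 ± 2.10 CPM (log2 fold change 0.50, adjusted p = 0.0403 in edgeR with the block).

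Genes were then ranked by how closely their log2 CPM followed each member across the 6 libraries, among 9923 other genes with a mean of at least 50 counts. The closest to *Ndrg2* were *Hmgn5*, a nucleosome-binding protein gene (Pearson r = 0.999), *Slc6a12*, the betaine transporter (0.994), *Trmt10a*, a tRNA methyltransferase (0.994), *Hspa1b*, an inducible Hsp70 gene (0.993), and *Nf2*, which encodes merlin (0.993). *Hspa1b* has a near-identical neighbour, *Hspa1a*, so its reads cannot be fully assigned. *Hmgn5* averaged 11.7 ± 0.749 CPM without and 24.0 ± 2.20 CPM with NaCl, so that a close match in shape went with a far smaller change in size. The closest to *Ndrg1* were *Mettl7a1* (0.998), *Lmbrd1* (0.993), *Shisa9* (0.991), *Mettl21a* (0.987) and *Arid1b* (0.987). The closest to *Ndrg3* were *Dvl2* (0.993), *Qars* (0.989), *Epc1* (0.988), *Odf2* (0.985) and *Arrb2* (0.984). All of these coefficients are over the same 6 libraries, of which 3 are treated, and have no p-value. Those of *Ndrg2* rest in part on control values at the floor and on the NaCl contrast by which it was selected. Between members the coefficient was -0.52 for *Ndrg1* and *Ndrg2*, -0.36 for *Ndrg1* and *Ndrg3* and 0.87 for *Ndrg2* and *Ndrg3*.

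The genes that act on or with the NDRG family were taken from 6 lists, and each list was counted in edgeR's fit across all genes, in which the median log2 fold change of all genes was -0.01. Without the block 0.478% of all genes were called higher and 0.176% lower, and with it 4.6% and 4.3%. An unadjusted p-value under 0.05 without the block was found for 12.6% of all genes, and 2.52% were called by DESeq2. A list's calls are read against these shares.

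Of the kinases upstream of NDRG proteins, *Sgk1* itself was at 107, 194 and 235 CPM in control replicates 1, 2 and 3 and at 177, 221 and 277 CPM in NaCl replicates 1, 2 and 3. It was higher in NaCl in 3 of 3 mice, but the groups overlapped, and the fitted log2 difference was 0.33 (SE 0.27), with an adjusted p in edgeR of 0.662 without and 0.0532 with the block. Of the 16 genes of the list of SGK kinases, mTORC2 subunits and related kinases, 15 were tested, and their median log2 fold change was 0.06. None (0) of the 15 passed in edgeR without the block or in DESeq2, while 3 had an unadjusted p-value under 0.05. With the block 1 passed, *Gsk3a*, a glycogen synthase kinase gene, which rose from 51.8 ± 2.23 to 67.3 ± 3.15 CPM (log2 fold change 0.38, adjusted p = 0.0454). *Sgk2* had 0 counts.

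Of the 14 genes of the MYC network, which holds the MYC proteins with their partners and antagonists, 12 were tested, and their median log2 fold change was 0.03. *Myc* averaged 43.6 ± 21.4 CPM without and 56.8 ± 29.1 CPM with NaCl (SD, n = 3 each), with an adjusted p in edgeR of 0.766 without and 0.105 with the block, and *Mycn* had 2 counts in all. None (0) of the 12 passed without the block or in DESeq2, and 1 had an unadjusted p-value under 0.05. With the block 1 passed, *Mxd3*, a MAX-binding partner, which rose from 4.30 ± 1.33 to 7.15 ± 0.394 CPM (adjusted p = 0.0275).

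Hypoxia response genes, among which *Ndrg1* is usually counted, were mostly lower in NaCl. All 23 genes of the list, which did not include *Ndrg1*, were tested. Of these, 20 had a value below 0 and 14 were lower in 3 of 3 mice. Among all 15903 genes tested, 8083 had a value below 0 and 3716 (23.4%) were lower in 3 of 3 mice. The median log2 fold change of the hypoxia list was -0.31. None (0) passed in edgeR without the block, where 8 had an unadjusted p-value under 0.05, and 2 passed in DESeq2. With the block 8 fell and 0 rose. *Bnip3*, a mitophagy receptor gene, fell from 19.5 ± 3.43 to 8.54 ± 2.91 CPM (log2 fold change -1.20, SE 0.20, adjusted p = 2.6e-04 in edgeR with the block). *Egln3*, a prolyl hydroxylase gene, fell from 6.40 ± 2.25 to 3.77 ± 0.427 CPM and *Ankrd37* from 10.0 ± 1.38 to 5.82 ± 1.09 CPM. *Ero1a*, an oxidase of the endoplasmic reticulum, fell from 64.3 ± 11.2 to 42.9 ± 3.99 CPM, and the others that passed were *Vegfa*, *Pdk1*, *Pgk1* and *P4ha1*. *Hif1a* averaged 100.5 ± 11.9 CPM without and 91.4 ± 13.6 CPM with NaCl, with an adjusted p of 0.751 without and 0.552 with the block.

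Levels of the hypoxia list in mouse 1, where *Ndrg1* was highest, lay on both sides. Of the 23 genes, 2 (*Arnt* and *Ddit4*) were higher in both libraries of mouse 1 than in all 4 others, 6 (*Epas1*, *Egln1*, *Slc2a1*, *Ldha*, *P4ha1* and *Hk2*) were lower, and 15 were neither. Here too the share of all genes was not counted. *Ldha*, lactate dehydrogenase, was at 828 (control) and 837 CPM (NaCl) in mouse 1, against 927 to 1532 CPM in the other 4 libraries. The change of *Ndrg1* within mouse 1 was the smallest of the 3 mice. Among the hypoxia genes that fell with the block this also held for *Bnip3*, *Egln3*, *Ero1a*, *Pdk1*, *Pgk1* and *P4ha1*. It did not hold for *Vegfa* and *Ankrd37*. The log2 ratios in mice 1, 2 and 3 were -0.40, -1.79 and -1.43 for *Bnip3* and -0.74, -0.29 and -0.67 for *Vegfa*. The share of all genes with this pattern was not counted.

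**Figure D4:**
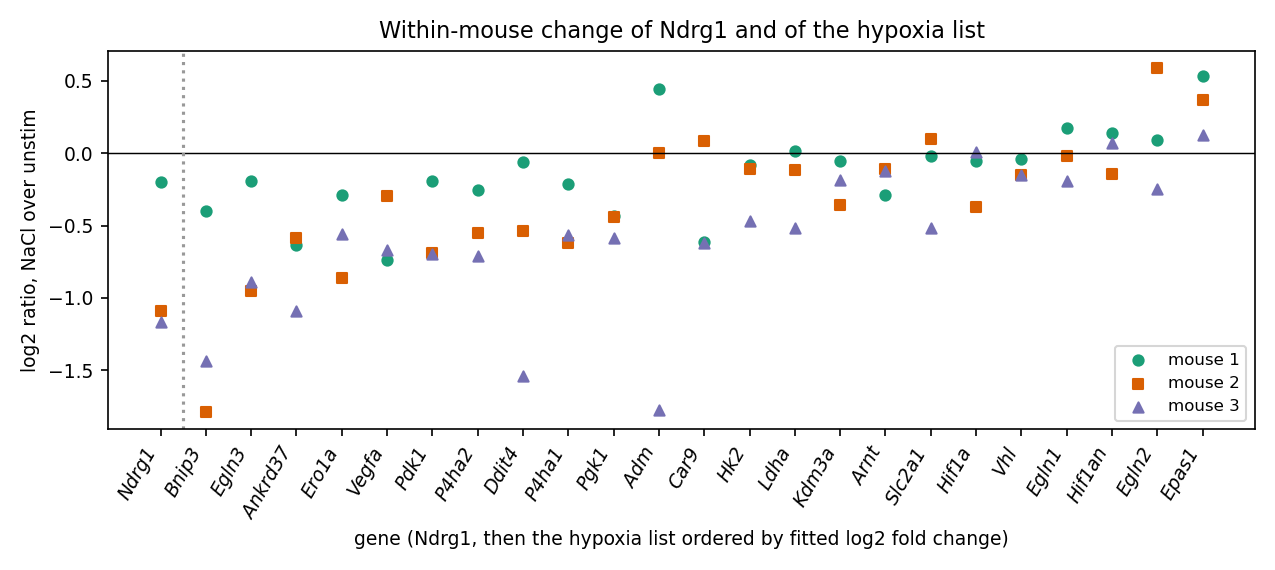
Log2 ratio of NaCl over control (unstim) within each mouse for *Ndrg1* and for the 23 hypoxia response genes, ordered by fitted log2 fold change, with a symbol per mouse and a line at 0. Most points lie below 0. For *Ndrg1*, *Bnip3* and *Egln3* the point of mouse 1 lies nearest to 0, and for *Vegfa* it lies furthest from 0.

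*Ndrg2* is also known as a corticosteroid-induced gene. Of the 15 corticosteroid response genes, 13 were tested, and their median log2 fold change was 0.16. None (0) passed in edgeR with or without the block or in DESeq2, while 2 had an unadjusted p-value under 0.05. *Nr3c1*, the glucocorticoid receptor, averaged 102.9 ± 1.47 CPM without and 103.8 ± 18.1 CPM with NaCl. *Nr3c2*, the mineralocorticoid receptor, did not exceed 0.671 CPM in any library, and the epithelial sodium channel genes *Scnn1b* and *Scnn1g* had 0 counts.

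Of the 10 osmotic response genes, 9 were tested and 4 rose without the block, namely *Slc6a12*, *Slc5a3*, which overlaps *Mrps6*, *Hspa1b* and *Hspa1a*, with log2 fold changes of 7.34, 4.07, 3.81 and 3.17. With the block 6 rose, the others being *Akr1b3* and *Slc38a2*. *Nfat5* had means of 118 ± 17.1 CPM (control) and 135 ± 19.4 CPM (NaCl, n = 3 each, adjusted p = 0.668 without and 0.416 with the block in edgeR). Within the NaCl libraries *Ndrg2* was lowest in replicate 1 and highest in replicate 2, and 4 of these 9 genes had that same order, as did 10 of the 23 hypoxia genes, 4 of the 10 neutrophil and precursor genes and 17.3% of all genes. *Slc6a12* was at 44.4, 104.7 and 64.2 CPM in NaCl replicates 1, 2 and 3, and *Akr1b3*, aldose reductase, was at 116, 259 and 159 CPM.

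Of the 12 p53 pathway genes, 12 were tested, and their median log2 fold change was -0.22. None (0) passed in edgeR without the block, where 5 had an unadjusted p-value under 0.05, and 1 passed in DESeq2. With the block 4 fell, *Sesn2*, *Ccng1*, *Phlda3* and the cell cycle inhibitor gene *Cdkn1a*, the last from 320 ± 31.6 to 209 ± 12.5 CPM. *Trp53* was at 66.6 ± 8.09 and 79.8 ± 9.19 CPM (adjusted p = 0.513 without and 0.188 with the block in edgeR).

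The cells carried macrophage markers in all libraries. The summed level of 8 macrophage genes, most of it from *Lyz2*, ranged from 14736 to 16123 CPM in control and from 23232 to 30765 CPM in NaCl, and *Adgre1*, which encodes F4/80, was at least at 1263 CPM in every library. In these bulk samples fewer cells of a type and less RNA per cell cannot be told apart. The summed levels in control and in NaCl ranged from 163 to 265 and from 144 to 333 CPM for 7 monocyte genes, from 251 to 542 and from 271 to 392 CPM for 10 neutrophil genes, and from 4.54 to 4.98 and from 3.54 to 4.07 CPM for 8 dendritic cell genes. They did not exceed 10.4 CPM for the 2 of 5 B cell genes tested, 2.35 CPM for the 1 of 5 T and NK cell genes, 4.08 CPM for the 4 of 5 mast cell and basophil genes and 4.34 CPM for the 3 of 8 stromal and adipocyte genes. Of the erythroid genes 0 of 5 reached 10 counts in all, and *Pax5*, *Cd3e*, *Ncr1* and *Adipoq* had 0 counts. In edgeR without the block, *Lyz2* and *Ifitm6* were the only markers called higher. DESeq2 called 4 of the 8 macrophage genes, *Lyz2*, *Csf1r* and *Cx3cr1* higher and *Mertk* lower, and 1 of the 7 monocyte genes. *Mertk* fell from 93.4 ± 19.2 to 47.3 ± 16.1 CPM. The monocyte marker *Ifitm6* rose with *Ndrg2*, from 2.61 ± 0.211 to 28.3 ± 18.2 CPM, and its part in the change of *Ndrg2* was not tested. *Ly6c2*, which marks inflammatory monocytes, did not exceed 6.97 CPM in any library.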

How the data were processed

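Polyadenylated RNA of the 6 libraries was sequenced by the study as 75-base single-end reads without strand information. Per the labels and methods, the authors trimmed reads with fastp 0.20.0 and aligned them with STAR 2.7.10b, and deposited raw gene counts. They also deposited these counts divided by DESeq2 1.40.2 size factors, a normalized signal, for 15903 genes whose counts summed to 10 or more. The signal, multiplied by 1 factor per library, gave back the raw counts to within 9.0e-10, so raw counts were used, with symbols from the authors' table. The methods name mm10 but a GENCODE release of another build, so genes are placed by chromosome only. Library totals ranged from 4088065 (NaCl replicate 3) to 20123570 counts (control replicate 3), which limits low genes.

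Counts were fitted with edgeR 4.0.16 (TMM, glmQLFit and glmQLFTest, two-sided, NaCl against control), and p-values were Benjamini-Hochberg adjusted over all 15903 genes. The SE of a log2 fold change was taken as its absolute value divided by the square root of the quasi-likelihood F statistic. It is thus derived from the test and is approximate for genes with few counts. CPM and log2 CPM (prior count of 2) came from the same object. Same-numbered libraries come from the same mouse, and their deviations from group means correlated across genes at 0.43, 0.15 and 0.22, against -0.35 to 0.12 for other pairs, so a fit in which mouse is a replicate block is given where it changes a call. Replicates are separate mice. The members and lists, and the rule for named genes, were chosen with earlier results of these data known. The rule names the members, each list's central gene and up to 4 genes past the threshold, the 5 genes most like each member, and the nearest 3 genes on each side. The alternatives were DESeq2 1.42.0, the block, median-ratio size factors, a minimum total count of 1, filterByExpr, leaving out each library, another transcript length and, chosen after the data were seen, the block without each mouse. The fits were tested on simulated counts that held no difference between mice. That test does not bear on how calls differed with and without the block. GENCODE M21, which held 97.4% of the gene identifiers, gave lengths and neighbours. Intervals cover counting error only. R 4.3.3 and Python 3.11.15 were used.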

Additional observations from a re-analysis of the deposited data

How the results depend on the processing

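The fitted direction of the 3 members was kept in each of the 15 alternatives. Leaving out 1 library, the log2 fold change of *Ndrg1* ranged from -1.51 to -0.14, that of *Ndrg2* from 6.89 to 8.17 and that of *Ndrg3* from 0.23 to 0.40. With the replicate block they were -0.75, 7.59 and 0.32, and with the block and without mouse 1 or mouse 3 that of *Ndrg2* was 8.40 and 6.91. With the longest transcript as the length, the mean ratios between members moved by less than 1 SD.

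The first fit called 76 genes higher and 28 lower. DESeq2 called 245 and 155, the replicate block 732 and 684, the block in DESeq2 452 and 354, a total of 1 count as minimum 362 and 300, and the block without mouse 1, 2 or 3 called 469 and 417, 758 and 661, and 715 and 585. With any 1 of the 6 libraries left out, the higher calls moved by over 1.5 times, to between 8 when control replicate 2 was dropped and 123 when NaCl replicate 1 was, and the lower calls lay between 0, when NaCl replicate 2 or 3 was dropped, and 46, when NaCl replicate 1 was. The share called higher was thus 73.1% in the first fit and 51.7% with the block. The cause was not tested. Median-ratio size factors and filterByExpr stayed within 1.5 times.

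Of hypoxia genes, 0 were called lower, against 2 in DESeq2, 8 with the block, 6 under DESeq2's block, 4 when 1 count was the minimum, from 0 to 1 leaving out 1 library (1 without NaCl replicate 1), and 5, 8 and 3 with the block without mouse 1, 2 and 3. Of p53 pathway genes, 0 were called lower, against 1 in DESeq2, 4 with the block in either tool, 4 when 1 count was the minimum, from 0 to 1 leaving out 1 library (1 without NaCl replicate 1), and 4, 5 and 3 without mouse 1, 2 and 3 under the block. Against 0 higher genes of the kinase list, the block gave 1, and 2 and 1 without mouse 2 and mouse 3. Against 0 higher genes of the MYC network, the block gave 1, and 1 without mouse 1, while 1 was lower without mouse 2. Against 0 higher corticosteroid genes, the block without mouse 1, 2 or 3 gave 1, 1 and 3. The 4 osmotic genes called higher stayed within 1.5 times, from 3 to 5 leaving out 1 library. The cause of these differences was not tested. Of the markers, the block called 3 macrophage genes higher and 1 lower and 2 neutrophil genes, *Ngp* among them, lower. Beside these and the calls given with the report's results, the block changed no call of a list gene or neighbour named there. The depth of NaCl replicate 3 limits what can be seen of genes as low as *Ndrg4*, and the 6 control counts limit the size of the *Ndrg2* ratio.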
